A study of Homo sapiens with 6 samples.

Results

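The human mitochondrial genome carries 37 genes, and all 37 were found among the 37871 genes of the count table by a symbol that starts with MT-. They are 2 rRNA genes, 13 mRNA genes and 22 tRNA genes. In the GENCODE 29 annotation of GRCh38, 28 of them lie on the plus strand and 9 on the minus strand. RNA was sequenced from 6 libraries of T24, a long-established bladder carcinoma cell line of human origin that is labelled epithelial and was grown in high-glucose DMEM with pen-strep. LPS plus nigericin was given to 3 of them and vehicle to 3. LPS is a bacterial cell wall component that signals through TLR4, nigericin is a potassium ionophore, and the pair is widely used to activate the NLRP3 inflammasome. The labels give no dose, time or vehicle composition, and hold no group with LPS alone or nigericin alone, so the effects of the pair cannot be told apart. They name more than 1 company for RNA extraction without saying which libraries each handled. Since no label says that replicates are separate cultures, each p-value reflects only how far these libraries spread, which may be technical. All groups are the same line, and the comparison asks how the combined treatment altered its RNA.

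Both strands of the mitochondrial genome are transcribed into long precursors. tRNAs sit between most of the rRNAs and mRNAs, and cutting them out at both ends releases the RNAs in between, a scheme known as tRNA punctuation. The rRNAs form the mitochondrial ribosome, the mRNAs encode core subunits of respiratory complexes I, III, IV and V, and the tRNAs decode them. Most of the mRNAs and rRNAs then receive short A tails, which for several mRNAs also complete the stop codon, while MT-ND6 mRNA is known to carry little or no tail. The mature tRNAs are shorter than the fragments that usual mRNA libraries keep, so counts on a tRNA gene can come from precursors and reads that run over its ends as well as from the tRNA. How the libraries were selected (poly(A) capture or rRNA removal) is not given in the sources used here.

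The ends of the mRNAs that the results turn on are shown first, since they differ in how the RNA is finished. Each line gives the last 24 bases of the annotated gene, 5′ to 3′, from GENCODE 29 on GRCh38, with the final codon or the part of it that the genome encodes in capitals. MT-ND2, MT-CO3 and MT-ND3 end in a lone T and belong to the 6 mRNAs with an incomplete stop codon; the other 7 have a whole one.
MT-ND2 (chrM:5488-5511, plus): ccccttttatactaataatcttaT
MT-CO3 (chrM:9967-9990, plus): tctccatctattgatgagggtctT
MT-ND3 (chrM:10381-10404, plus): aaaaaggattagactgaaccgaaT
MT-ND4L (chrM:10743-10766, plus): aacctaaacctactccaatgcTAA
MT-CO1 (chrM:7422-7445, plus): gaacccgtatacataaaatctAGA
MT-ND6 (chrM:14149-14172, minus): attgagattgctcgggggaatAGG

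Further sets bear on which values can be told apart. MT-ATP8 and MT-ATP6 share 46 bases, and MT-ND4L and MT-ND4 share 7. Each pair is known to be carried on a single mRNA, so reads from one molecule count towards both genes. The shared bases are in capitals, with 12 flanking bases on each side.
MT-ATP8/MT-ATP6 (chrM:8515-8584, plus): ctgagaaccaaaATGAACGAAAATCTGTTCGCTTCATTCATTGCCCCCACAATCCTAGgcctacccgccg
MT-ND4L/MT-ND4 (chrM:10748-10778, plus): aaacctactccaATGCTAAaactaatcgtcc
The tRNA genes MT-TN, MT-TS1 and MT-TP are all on the minus strand and are printed in the sense of the tRNA. MT-TN stands for the cluster with the largest falls, and MT-TS1 and MT-TP are the minus-strand members that moved least.
MT-TN (chrM:5657-5729, minus): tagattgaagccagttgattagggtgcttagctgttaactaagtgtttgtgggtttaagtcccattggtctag
MT-TS1 (chrM:7446-7514, minus): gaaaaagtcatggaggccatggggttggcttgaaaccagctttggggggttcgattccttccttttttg
MT-TP (chrM:15956-16023, minus): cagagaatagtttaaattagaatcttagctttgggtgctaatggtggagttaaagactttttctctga
MT-TS1 begins where the annotated MT-CO1 ends, on the other strand, and the human MT-CO1 mRNA is known to run on over it. MT-ND6 lies in the same way opposite the end of MT-ND5, whose mRNA is known to run on as well. Whether counting used strand is not given in the sources used here, so reads of MT-CO1 and MT-TS1, or of MT-ND5 and MT-ND6, cannot be told apart over those stretches.

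The libraries held 66180407 to 86594539 counts after LPS plus nigericin and 81917343 to 89152224 in vehicle. At this depth the spread between replicates, not counting error, set the precision for all but the lowest tRNAs. All 37 genes passed the filter on low counts. MT-TW met the minimum of 10 scaled counts in vehicle libraries only, with 3, 9 and 8 counts after LPS plus nigericin and 75, 69 and 83 in vehicle. The keratins KRT7, KRT8, KRT18 and KRT19 were abundant in both groups and fell, for example KRT18 at 470.4 ± 66.8 CPM after treatment and 1536 ± 273 CPM in vehicle (SD, n = 3 each). CPM are counts scaled to a common depth with TMM library sizes. Of the other epithelial markers, EPCAM was at 2.89 ± 0.570 and 1.92 ± 0.691 CPM and CDH1 had 6 counts in 1 treated library and 0 in the other 5. Leukocyte markers were at or near 0: PTPRC had at most 3 counts in a library, ITGAM at most 8, and LYZ 53, 49 and 53 counts after treatment against 4, 12 and 0 in vehicle.

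The 3 classes of mitochondrial RNA moved apart under treatment. Mitochondrial genes took 12.39%, 12.06% and 12.04% of all counts in the LPS plus nigericin libraries, and 6.49%, 7.33% and 6.78% in the vehicle libraries. The rRNAs took 4.63%, 4.31% and 4.35% after treatment and 0.448%, 0.469% and 0.446% in vehicle, a 9.75-fold higher mean. The mRNAs took 7.75%, 7.73% and 7.68% against 6.01%, 6.82% and 6.29%, a 1.21-fold higher mean. The tRNAs took 0.0156%, 0.0176% and 0.0156% against 0.0403%, 0.0440% and 0.0400%, a 2.55-fold lower mean. In each class the 2 groups did not overlap, and the exact two-sided permutation test gave p = 0.1, the smallest that 3 against 3 libraries allow. In bulk RNA, more mitochondrial RNA per cell and less of the other RNA per cell cannot be told apart.

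**Figure D1:**
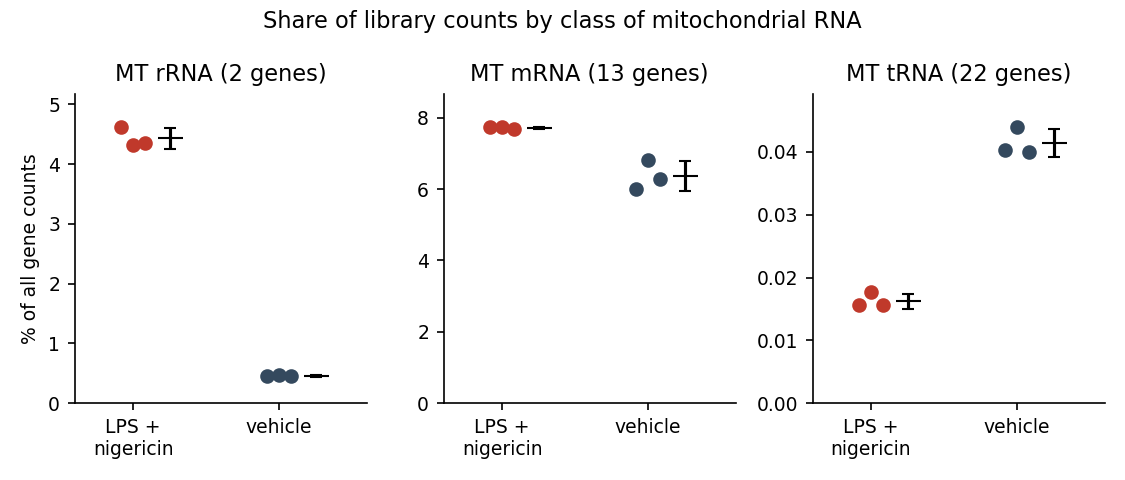
Share of all gene counts (%, linear axes from 0) taken by the mitochondrial rRNA, mRNA and tRNA genes, 1 point per library, with the group mean and SD beside the points. LPS plus nigericin libraries lie near 4.43% for rRNA, against 0.454% in vehicle, slightly above vehicle for mRNA, and below it for tRNA.

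Within the mitochondrial counts the balance shifted in the same way. The rRNAs made up 36.4% ± 0.825 of them after treatment and 6.63% ± 0.251 in vehicle, the mRNAs 63.5% ± 0.817 and 92.8% ± 0.262, and the tRNAs 0.134% ± 0.0110 and 0.603% ± 0.0152 (SD, n = 3 each). There were 0.597, 0.558 and 0.566 rRNA counts for each mRNA count in the treated libraries, against 0.0746, 0.0688 and 0.0710 in vehicle. These ratios do not depend on library size, and the groups lay far apart (exact permutation p = 0.1).

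Gene by gene, edgeR called 31 of the 37 at an adjusted p under 0.05, with 8 higher and 23 lower, against a background in which 55.3% of the 19170 tested genes were called, 28.9% higher and 26.4% lower. The 8 that rose were both rRNAs and 6 mRNAs, and the 23 that fell were 21 tRNAs and 2 mRNAs. The median log2 fold change was 3.23 for the rRNAs, 0.23 for the mRNAs and -2.49 for the tRNAs, beside 0.00 over all tested genes and 0.08 over 13963 nuclear protein-coding genes. The 3 and 3 libraries did not overlap for 32 of the 37 genes, against 67% of all tested genes.

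**Figure D2:**
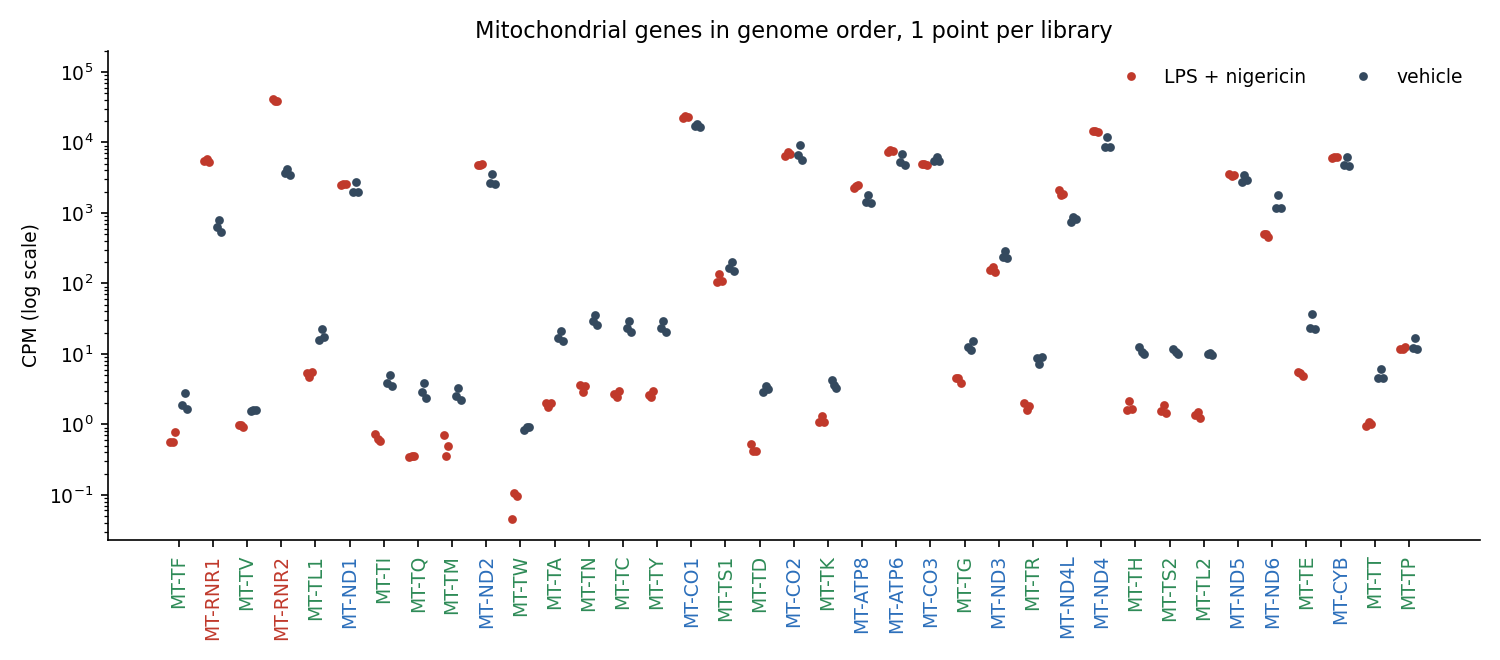
CPM on a log axis for each of the 37 mitochondrial genes in genome order, 1 point per library, LPS plus nigericin left of vehicle; gene names are coloured by class (red rRNA, blue mRNA, green tRNA). The rRNAs lie higher after treatment and the tRNAs lower, except for MT-TP, whose groups overlap.

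The rRNAs had the largest rises among the 37 genes. MT-RNR2, the 16S rRNA of the large ribosomal subunit (chrM:1671-3229), was at 40756, 38844 and 38869 CPM after treatment and 3741, 4242 and 3504 CPM in vehicle. The libraries of each group lay close together and the groups far apart. The rise was 10.3-fold (log2 fold change 3.37 ± 0.13 SE, edgeR adjusted p = 1.33e-05). MT-RNR1, the 12S rRNA of the small subunit (chrM:648-1601), was at 5497, 5911 and 5355 CPM after treatment and 631, 795 and 531 CPM in vehicle, with no overlap. It rose 8.56-fold (log2 fold change 3.10 ± 0.17, edgeR adjusted p = 3.12e-05). There were 7.41, 6.57 and 7.26 MT-RNR2 counts for each MT-RNR1 count in treated libraries and 5.93, 5.33 and 6.60 in vehicle, and these ranges overlapped (exact permutation p = 0.2). Although the 2 genes are transcribed together and flanked by MT-TF, MT-TV and MT-TL1, none of these tRNAs rose with them. MT-TV, the valine tRNA between the rRNAs, was at 0.982, 0.970 and 0.928 CPM after treatment and 1.56, 1.59 and 1.58 CPM in vehicle.

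RNAs from outside the mitochondrial genome that are known to lack a poly(A) tail were called higher more often than lower. Of 25 such noncoding RNAs and histone mRNAs, 15 were tested, 6 rose and 1 fell, with a median log2 fold change of 0.46. Of all tested genes, 28.9% were higher and 26.4% lower. The 46.7% called in either direction lay below the 55.3% of all tested genes. The 3 copies of 5.8S rRNA, a component of the cytosolic ribosome, rose most: RNA5-8SN1 was at 29.2 ± 2.39 CPM after treatment and 1.66 ± 0.126 CPM in vehicle, RNA5-8SN2 at 58.01 ± 2.12 and 2.49 ± 0.311 CPM, and RNA5-8SN3 at 44.3 ± 3.58 and 2.16 ± 0.127 CPM (SD, n = 3 each). Their log2 fold changes were 4.13, 4.54 and 4.36; the copies are near-identical, so how their reads were split is uncertain. SNORD3A, the U3 small nucleolar RNA of rRNA processing, rose by a log2 fold change of 3.92, and the histone genes H1-4 and H2AC6 by 1.47 and 0.59. SNORA73B, another small nucleolar RNA, fell by 2.22 on the log2 scale, at 0.252 ± 0.0319 CPM after treatment and 1.17 ± 0.322 CPM in vehicle. The calls of H1-4 and H2AC6 were lost in 4 and 8 alternatives, and H1-4 was low, at 0.586 ± 0.149 CPM after treatment and 0.210 ± 0.0591 CPM in vehicle. The members that did not pass were RN7SL1 (-0.26) and RN7SL2 (-0.11), the signal recognition particle RNA, RN7SK (-0.64), RMRP (-0.89), RPPH1 (0.46), H1-2 (-0.48), H4C3 (1.85) and H3C2 (0.33). The part of untailed RNA in the mitochondrial rRNA values was not tested.

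The mRNAs were split. Of 13, 6 rose, 2 fell and 5 did not pass, so 61.5% were called, near the 55.3% of all tested genes. Of the 13963 nuclear protein-coding genes, 61.3% were called. With offsets for GC content and length, fitted per library over protein-coding genes, 3 rose and 2 fell. Only the 13976 protein-coding genes entered this fit, and 54.6% of them were called. MT-ND2, MT-CO1 and MT-ND4L kept their rise and MT-ND6 and MT-ND3 their fall. Vehicle replicate 2 had the highest level of the 3 vehicle libraries for all 13 mRNAs, and without it 9 rose and 2 fell (52.4% of all genes called). Without LPS plus nigericin replicate 1 (41.8% of all genes called), or without vehicle replicate 1 (43.1%), 3 rose and 2 fell.

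Among the 7 complex I (NADH dehydrogenase) subunits, MT-ND4L (chrM:10470-10766) rose most. It was at 2086, 1797 and 1866 CPM after treatment and 738.6, 864 and 822 CPM in vehicle, with a clear gap between the groups. The rise was 2.37-fold (log2 fold change 1.25 ± 0.12, edgeR adjusted p = 0.000172). MT-ND4 (chrM:10760-12137), encoded on the same mRNA, was at 14642, 14399.95 and 14145 CPM after treatment and 8483, 11846 and 8613 CPM in vehicle, so vehicle replicate 2 lay between its group and the treated libraries. Its rise was smaller (log2 fold change 0.58 ± 0.15, edgeR adjusted p = 0.0140), and was not called without LPS plus nigericin replicate 1 (0.56, adjusted p = 0.0533), without vehicle replicate 1 (0.49, adjusted p = 0.0656) or with the GC and length offsets (0.41, adjusted p = 0.0830). Per base of gene, there were 1.51, 1.73 and 1.63 MT-ND4 counts for each MT-ND4L count in treated libraries, against 2.48, 2.96 and 2.26 in vehicle. The ratio thus lay lower in every treated library, although the genes share an mRNA (exact permutation p = 0.1).

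MT-ND2 (chrM:4470-5511) was at 4839.6, 4859.96 and 4901 CPM after treatment and 2621, 3515 and 2535 CPM in vehicle. The groups did not overlap, and it rose with a log2 fold change of 0.75 ± 0.15 (edgeR adjusted p = 0.00370). MT-ND1 was at 2529, 2598 and 2586 CPM after treatment and 1955, 2780.4 and 1978 CPM in vehicle, and MT-ND5 at 3577, 3352 and 3426 CPM and 2767, 3472 and 2889.7 CPM. Vehicle replicate 2 lay above the treated libraries for MT-ND1 and among them for MT-ND5, and neither gene passed (log2 fold change 0.20 and 0.18). Without that library both were called higher, at 0.38 for MT-ND1 and 0.28 for MT-ND5.

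MT-ND6 and MT-ND3, also complex I subunits, went the other way. MT-ND6 (chrM:14149-14673), the one mRNA of the minus strand, was at 498, 506 and 457 CPM after treatment and 1185, 1812 and 1163 CPM in vehicle, and every vehicle library lay above every treated one. It fell 2.85-fold (log2 fold change -1.51 ± 0.19, edgeR adjusted p = 0.000477). MT-ND3 (chrM:10059-10404) was at 153, 169 and 145 CPM after treatment and 239.9, 286 and 227 CPM in vehicle, and fell by 0.69 ± 0.13 on the log2 scale (edgeR adjusted p = 0.00262). There were 7.18, 6.62 and 7.49 MT-ND5 counts for each MT-ND6 count in treated libraries, against 2.34, 1.92 and 2.49 in vehicle. The ratio lay higher in every treated library (exact permutation p = 0.1). If counting ignored strand, reads of the MT-ND5 mRNA opposite MT-ND6 may count towards MT-ND6, and reads across the boundary towards either gene.

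For complex IV (cytochrome c oxidase), MT-CO1 (chrM:5904-7445) was at 22037, 23847 and 22603 CPM after treatment and 17139, 18324 and 16634 CPM in vehicle. It rose with a log2 fold change of 0.39 ± 0.11 (edgeR adjusted p = 0.0185), with an adjusted p of 0.0564 to 0.0777 when any treated library or vehicle replicate 1 was left out. MT-CO2 overlapped between groups, at 6527, 7208 and 6962 CPM after treatment and 6599.8, 9097 and 5700.3 CPM in vehicle, and did not pass (log2 fold change -0.05, edgeR adjusted p = 0.837). MT-CO3 was at 4984, 4992 and 4709 CPM after treatment and 5507, 6264 and 5499 CPM in vehicle. Every treated library lay below every vehicle one, but the test did not pass (log2 fold change -0.23, edgeR adjusted p = 0.112); scaled by library totals it did (-0.28, adjusted p = 0.0119).

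Both complex V (ATP synthase) subunits rose. MT-ATP8 was at 2275, 2402 and 2487 CPM after treatment and 1422, 1779.5 and 1378 CPM in vehicle (log2 fold change 0.65 ± 0.13, edgeR adjusted p = 0.00437). MT-ATP6 was at 7373, 7802 and 7684 CPM against 5232, 6925 and 4723 CPM (log2 fold change 0.44 ± 0.16, edgeR adjusted p = 0.0447). The MT-ATP6 call was lost in 9 alternatives, among them RLE scaling (adjusted p = 0.0676), and the MT-ATP8 call with the GC and length offsets (0.16, adjusted p = 0.413). Their ratio was 3.24, 3.25 and 3.09 MT-ATP6 counts for each MT-ATP8 count after treatment, and 3.68, 3.89 and 3.43 in vehicle. MT-CYB, the cytochrome b of complex III, was at 5973, 6255 and 6195 CPM after treatment and 4747, 6257 and 4694 CPM in vehicle. It did not pass (log2 fold change 0.23, edgeR adjusted p = 0.199), but was called without vehicle replicate 2 (0.38).

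Levels can be ordered between genes only per length. In CPM per kb, MT-RNR2 ranked 1 of the 15 rRNA and mRNA genes after treatment, at 25330.02 ± 703, and 11 in vehicle, at 2456 ± 242 (SD, n = 3 each). MT-RNR1 ranked 9 at 5857 ± 303 after treatment, and 15, the lowest, at 684 ± 139.8 CPM per kb in vehicle, where its spread overlapped that of MT-ND3 at 726 ± 89.4. MT-CO1 led the mRNAs in both groups, at 14805 ± 600.2 CPM per kb after treatment and 11262 ± 562 in vehicle. In vehicle MT-CO2 followed at 10428 ± 2573, within its SD of MT-CO1. After treatment the spreads (mean ± SD) of MT-ATP8 at 11537 ± 515.5 and MT-ATP6 at 11189 ± 325 CPM per kb overlapped. So did those of MT-ND4 at 10447 ± 180.3 and MT-CO2 at 10086 ± 504. MT-ND6 was at 928 ± 49.8 CPM per kb after treatment and 2641 ± 702 in vehicle, and MT-ND3 was the lowest mRNA in both groups.

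As shares of the 13 mRNAs, a measure free of library size, MT-ND4 took 18.3% ± 0.505 after treatment and 15.3% ± 0.862 in vehicle, MT-ND2 6.19% ± 0.114 and 4.58% ± 0.194, and MT-ND4L 2.44% ± 0.230 and 1.295% ± 0.137 (SD, n = 3 each). MT-CO3 took 6.23% ± 0.204 and 9.21% ± 0.581, MT-CO2 8.77% ± 0.306 and 11.2% ± 1.20, MT-ND6 0.620% ± 0.0304 and 2.18% ± 0.256, and MT-ND3 0.198% ± 0.0127 and 0.400% ± 0.00923. In each of these 7 the groups did not overlap (exact permutation p = 0.1, the smallest possible). This was not particular to them, since MT-ND1, MT-ATP8, MT-ATP6, MT-ND5 and MT-CYB did not overlap either. MT-CYB, for example, took 7.81% ± 0.110 after treatment and 8.30% ± 0.228 in vehicle. Only MT-CO1 overlapped. MT-CO1 held 28.4%, 29.7% and 28.9% after treatment and 29.2%, 25.025% and 29.3% in vehicle, where replicate 2 stood below the others (exact permutation p = 0.7).

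**Figure D3:**
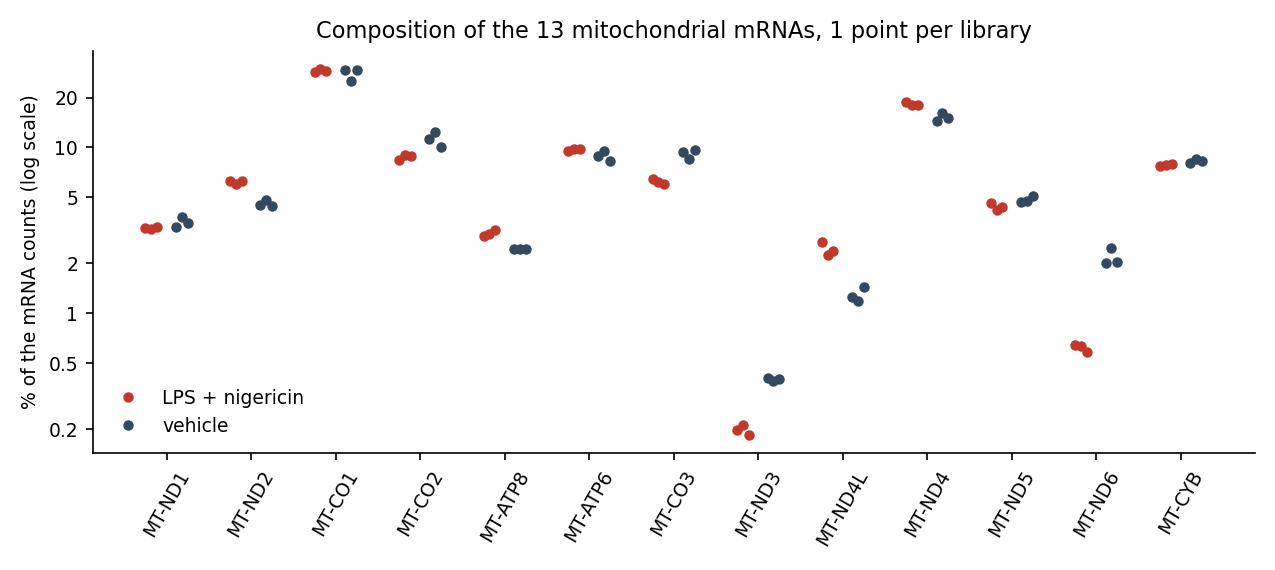
Percent of the counts of the 13 mitochondrial mRNAs taken by each gene (log axis), 1 point per library, in genome order. LPS plus nigericin libraries lie above vehicle for MT-ND4L and MT-ND2 and below it for MT-CO3, MT-ND3 and MT-ND6.

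Both kinds of stop codon held genes that rose and genes that fell. Of the 6 with an incomplete stop codon, MT-ND2 and MT-ND4 rose and MT-ND3 fell (50.0% called), with a median log2 fold change of 0.22. Of the 7 with a whole one, 4 rose and MT-ND6 fell (71.4% called), with a median of 0.39. These shares lie on either side of the 55.3% of all tested genes, and the difference between the groups was not tested. Position gave no single direction either, since MT-ND3 fell while MT-ND4L, the next mRNA along, rose.

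Of the 22 tRNAs, 21 fell (95.5%, against 26.4% of all tested genes), and MT-TP was the one that did not pass. Leaving aside MT-TW, which passed the filter through vehicle alone, 20 of 21 fell. All 14 on the plus strand, MT-TW included, fell, with a median log2 fold change of -2.35. On the minus strand 7 of the 8 fell, with a median of -3.13. The treated libraries lay below every vehicle library for each of the 21 called lower. Of all tested genes, 67% did not overlap between groups in either direction. The calls come from the same libraries, so this is not separate support.

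**Figure D4:**
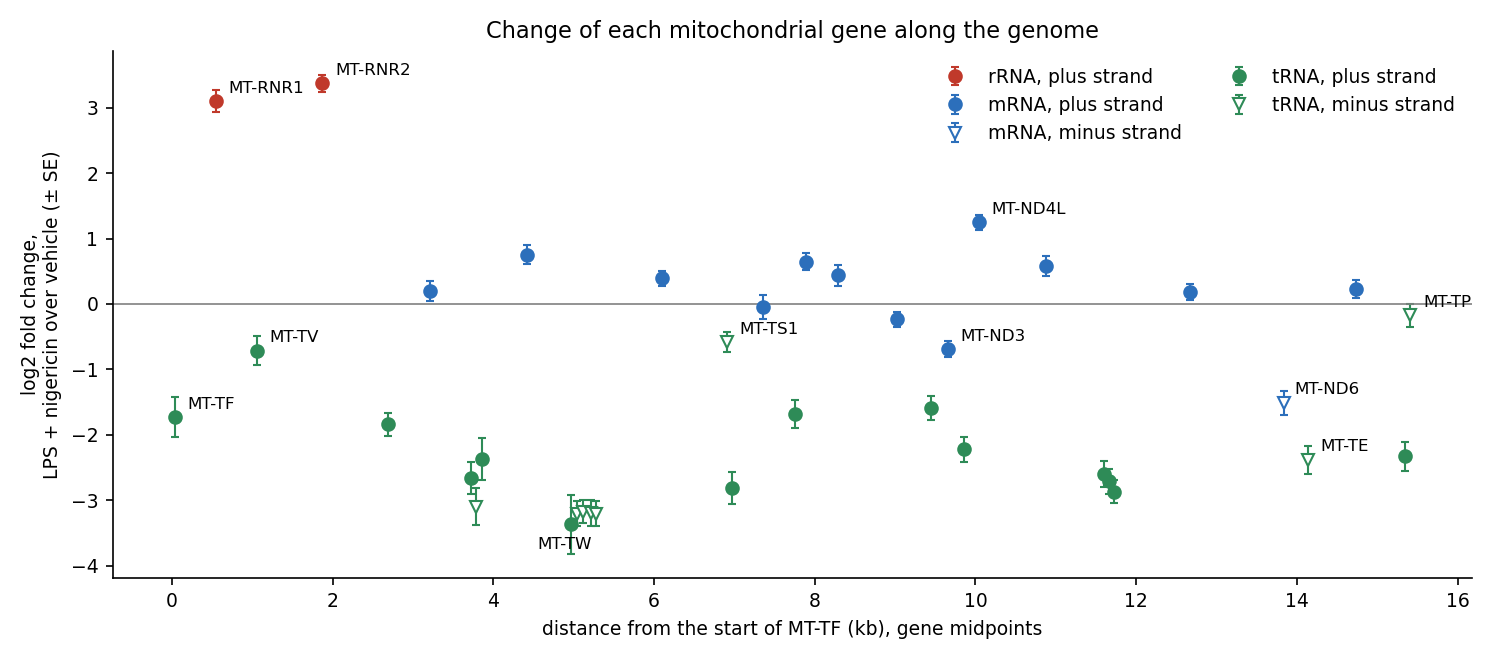
Log2 fold change (LPS plus nigericin over vehicle, ± SE) of each of the 37 genes against the distance of its midpoint from the start of MT-TF (kb). Filled circles are plus-strand genes and open triangles minus-strand genes; the tRNAs lie at -3.36 to -0.17 and the rRNAs at 3.10 and 3.37.

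The lowest values belonged to the cluster between MT-ND2 and MT-CO1, which holds the tRNAs for tryptophan, alanine, asparagine, cysteine and tyrosine. Their log2 fold changes ran from -3.36 to -3.17, the lower end being that of MT-TW, which passed the filter through vehicle alone. MT-TN, the asparagine tRNA shown above, was at 3.58, 2.91 and 3.50 CPM after treatment and 28.9, 35.3 and 25.7 CPM in vehicle. It fell 8.998-fold (log2 fold change -3.17 ± 0.18, edgeR adjusted p = 3.17e-05). MT-TA, MT-TC and MT-TY, also on the minus strand, fell by 3.201, 3.19 and 3.199 on the log2 scale, at 1.77 to 2.97 CPM over the treated libraries and 15.4 to 29.7 CPM over vehicle. MT-TW, the one plus-strand member, was at 0.0453, 0.108 and 0.0952 CPM after treatment and 0.821, 0.904 and 0.910 CPM in vehicle, and its fold rests on the few counts given above.

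The other clusters also fell together. MT-TI, MT-TQ and MT-TM, for isoleucine, glutamine and methionine, had log2 fold changes of -3.09 to -2.37, with 0.347 to 0.740 CPM over the treated libraries and 2.18 to 4.98 CPM over vehicle. MT-TH, MT-TS2 and MT-TL2, for histidine, serine and leucine, had -2.87 to -2.60, with 1.23 to 2.16 CPM and 9.49 to 12.5 CPM. The single tRNAs along the plus strand fell by less or similar amounts: MT-TD by 2.81, MT-TT by 2.33, MT-TR by 2.22, MT-TL1 by 1.84, MT-TF by 1.73, MT-TK by 1.68 and MT-TG by 1.59. MT-TF, the phenylalanine tRNA at the head of the plus-strand genes, was at 0.559, 0.563 and 0.785 CPM after treatment and 1.91, 2.77 and 1.67 CPM in vehicle. MT-TG, the glycine tRNA before MT-ND3, was at 4.56, 4.60 and 3.89 CPM and 12.7, 11.2 and 15.4 CPM. MT-TL1, the leucine tRNA next to the rRNAs that also holds a known termination site for transcription, was at 5.41, 4.67 and 5.45 CPM after treatment and 15.9, 22.2 and 17.4 CPM in vehicle. MT-TE, the glutamate tRNA next to MT-ND6 on the minus strand, was at 5.56, 5.44 and 4.86 CPM after treatment and 23.5, 36.3 and 22.6 CPM in vehicle, and fell by 2.38. The smallest called fall on the plus strand was that of MT-TV at -0.71 (edgeR adjusted p = 0.0281), which was lost without a count filter, with the replicate block (adjusted p = 0.0739) and when any single library was left out.

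MT-TS1 and MT-TP stood apart from the other minus-strand tRNAs. MT-TS1, a serine tRNA, was the most counted tRNA, at 105, 134 and 108 CPM after treatment and 168, 202 and 150.3 CPM in vehicle. It fell by 0.58 ± 0.15 on the log2 scale (edgeR adjusted p = 0.0119), with an adjusted p of 0.0520 without LPS plus nigericin replicate 1 and 0.0551 without replicate 3. It made up 67.5%, 73.2% and 68.3% of all tRNA counts in treated libraries and 42.8%, 42.6% and 41.6% in vehicle. There were 210.0, 178 and 209 MT-CO1 counts for each MT-TS1 count after treatment and 102, 90.9 and 110.7 in vehicle. MT-TP, the proline tRNA that faces the control region, was at 11.7, 11.7 and 12.6 CPM after treatment and 11.97, 16.8 and 11.8 CPM in vehicle, with overlapping groups (log2 fold change -0.17 ± 0.17, edgeR adjusted p = 0.437). The other 20 tRNAs together took 0.00388%, 0.00358% and 0.00369% of all counts in treated libraries and 0.0218%, 0.0237% and 0.0220% in vehicle, a 6.05-fold lower mean.

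A second fit set each gene against the summed mRNAs of the same library, so that a shift common to all mitochondrial RNA cancels. In it 6 of the 37 genes were higher and 26 lower, against 14.8% and 34.5% of all tested genes (49.3% in either direction), whose median moved to -0.34. MT-RNR1 and MT-RNR2 were higher by 2.78 and 3.04 on the log2 scale (edgeR adjusted p = 1.47e-05 and 3.26e-06). Of the mRNAs, MT-ND4L (0.91), MT-ND2 (0.44), MT-ATP8 (0.32) and MT-ND4 (0.26) were higher than the mRNAs as a whole, and MT-ND6 (-1.81), MT-ND3 (-1.02), MT-CO3 (-0.56) and MT-CO2 (-0.36) lower. MT-CO1, at 0.06, did not pass (edgeR adjusted p = 0.561). All 22 tRNAs were lower, including MT-TP at -0.48 (edgeR adjusted p = 0.0440) and MT-TS1 at -0.91. MT-TW is among the 22, though it passed the filter through vehicle alone. With the replicate number as a block the calls of MT-ND4 (adjusted p = 0.0693) and MT-TP (0.0935) were lost. The MT-ND4 call was also lost without LPS plus nigericin replicate 1 or 3 or vehicle replicate 1, the MT-TP call without a count filter (adjusted p = 0.0749) and when any library but vehicle replicate 2 was left out, and the MT-ATP8 call without LPS plus nigericin replicate 3 (adjusted p = 0.0507).

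Copies of mitochondrial genes in the nuclear genome are near-identical to them in sequence, and reads could be split between the 2 places. Of 22 such genes listed, 9 were tested and 2 rose (22.2% called, against 55.3% of all tested genes), MTND2P28 with a log2 fold change of 1.11 and MTATP6P1 with 0.45, the second with an edgeR adjusted p of 0.0489 that 8 alternatives moved past 0.05. MTATP8P1 (0.95), MTND4P12 (0.48), MTND5P11 (0.29), MTCO2P12 (0.25), MTCO1P12 (0.05), MTCO3P12 (-0.03) and MTND1P23 (-0.13) did not pass. The 13 not tested had no row in the count table under their symbols. None of the 9 is a copy of an rRNA gene, so a split of rRNA reads could not be looked at. MTATP6P1 had 174 ± 3.78 counts for each 1000 of MT-ATP6 after treatment and 171 ± 5.77 in vehicle (SD, n = 3 each), with overlapping groups. MTND2P28 had 51.9 ± 4.01 and 40.96 ± 3.09 counts for each 1000 of MT-ND2, and MTCO1P12 had 18.3 ± 0.610 and 23.2 ± 0.942 for each 1000 of MT-CO1, with no overlap in either. The other 6 copies stood at no more than 1.36 per 1000 in any library. Among the 9 tested, MTATP6P1 was thus the largest copy beside its mitochondrial gene, and how reads were split between that pair is uncertain.

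The nuclear genes of mitochondrial RNA and DNA, with regulators of mitochondrial biogenesis among them, moved in both directions. Of 92 tested in 7 lists, 30 rose and 40 fell (76.1% called, against 55.3% of all tested genes), with a median log2 fold change of -0.22. The 92 are protein-coding, and 61.3% of the 13963 nuclear protein-coding genes were called, a closer base here and for each list below. With a filter of 1 CPM in 3 libraries, 91 of the 92 were tested, and 68.5% of all 13808 genes were called. List shares of 71.4% to 73.3% below lie near that, so those counts say nothing particular of their lists. With the GC and length offsets 21 rose and 51 fell (54.6% of the 13976 protein-coding genes called), with a median of -0.39.

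**Figure D5:**
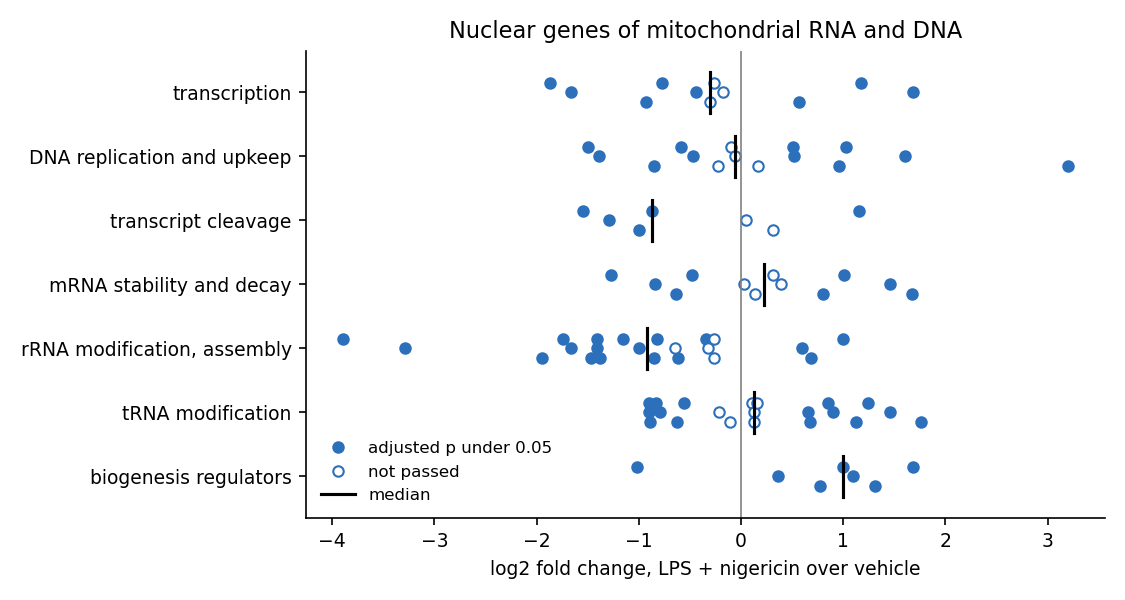
Log2 fold change (LPS plus nigericin over vehicle) of the nuclear genes in 7 lists, 1 point per gene, filled where the edgeR adjusted p was under 0.05, with the median of each list as a black bar. The rRNA modification and assembly list has a median of -0.92 and the list of biogenesis regulators one of 1.00.

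In transcription, 3 of 11 genes rose and 5 fell, so 72.7% were called, against 55.3% of all tested genes (28.9% higher and 26.4% lower). With the GC and length offsets 1 rose and 6 fell. POLRMT, the mitochondrial RNA polymerase, was at 35.6 ± 4.95 CPM after treatment and 129.7 ± 34.0 CPM in vehicle (SD, n = 3 each) and fell by 1.87 on the log2 scale. TFB2M, the initiation factor that opens the promoter, rose by 1.69, and TFAM, which packages mitochondrial DNA and starts transcription, by 1.17; with the offsets POLRMT was at -1.16, TFB2M at 1.34 and TFAM at 0.30 (edgeR adjusted p = 0.0908). TFB1M, which methylates the 12S rRNA, fell by 1.67. MRPL12 (-0.93), MTERF1 (-0.77), the termination factor, and TEFM (-0.44), the elongation factor, also fell, and MTERF2 rose (0.57). The calls of MTERF1, TEFM and MTERF2 were lost in 5, 7 and 5 alternatives, and that of MRPL12 with the offsets (-0.15); MTERF1 and TEFM were at -1.59 and -1.02 with them.

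In cleavage of the primary transcript, 1 of 7 genes rose and 4 fell, so 71.4% were called, against 55.3% of all tested genes (1 and 6 with the offsets). ELAC2, which cuts the 3′ end of tRNAs, was at 95.2 ± 1.93 CPM after treatment and 189.7 ± 10.9 CPM in vehicle and fell by 0.99. HSD17B10 (-0.87) and PRORP (-1.29), subunits of the enzyme that cuts the 5′ end, fell (-0.31 and -2.20 with the offsets), and the PRORP call was lost in 6 alternatives. TBRG4, a FASTK-family RNA-binding protein, fell by 1.54, and FASTKD5, needed for cleavage at sites without tRNAs, rose by 1.15.

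In mRNA stability and decay, 4 of 12 rose and 4 fell (3 and 5 with the offsets). The 66.7% called lay near the 55.3% of all tested genes, so the counts say nothing particular of the list. LRPPRC, which stabilises mitochondrial mRNAs, was at 113 ± 9.12 CPM after treatment and 35.3 ± 6.12 CPM in vehicle and rose by 1.68, while its partner SLIRP fell by 0.63. PNPT1 (1.46) and SUPV3L1 (1.01), the nuclease and helicase of the degradosome, rose, as did MTPAP (0.80), the poly(A) polymerase, and PDE12 (-0.48), which removes A tails, fell. FASTK (-1.27), needed for MT-ND6 mRNA, and DHX30 (-0.84) fell. With the offsets MTPAP was at 0.0025 (edgeR adjusted p = 0.989), LRPPRC at 0.87, PNPT1 at 0.72, SUPV3L1 at 0.66, FASTK at -0.69, DHX30 at -0.39 and PDE12 at -1.45. The calls of SLIRP and PDE12 were lost in 4 and 8 alternatives, and that of MTPAP in 5: the offsets, library totals, and leaving out LPS plus nigericin replicate 1 or 3 or vehicle replicate 1.

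Of 22 genes of rRNA modification and ribosome assembly, 3 rose and 15 fell (81.8% called, against 55.3% of all tested genes; 2 and 18 with the offsets), with a median of -0.92 beside the 3.23 of the rRNAs themselves. DDX28, an RNA helicase of large-subunit assembly, was at 2.41 ± 0.0998 CPM after treatment and 23.5 ± 1.73 CPM in vehicle and fell by 3.28. ERAL1, which binds the 12S rRNA, was at 50.3 ± 3.796 and 168 ± 28.98 CPM and fell by 1.74. MTG2, a GTPase of large-subunit assembly, fell by 1.41 (-0.86 with the offsets). RPUSD4 (1.00), a pseudouridine synthase, and the rRNA methyltransferases TRMT61B (0.69) and METTL15 (0.60) rose; with the offsets TRMT61B was at 0.38 and METTL15, not called, at -0.21. The METTL15 call was also lost without LPS plus nigericin replicate 1 or 3, without vehicle replicate 1 and with library totals.

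Of 21 genes listed under tRNA modification and maturation, 8 rose and 7 fell (71.4% called, against 55.3% of all tested genes). Their median was 0.13 beside the -2.49 of the tRNAs. With the offsets 6 rose and 9 fell. NSUN2, a cytosine methyltransferase of tRNAs, was at 148 ± 16.9 CPM after treatment and 43.6 ± 10.9 CPM in vehicle and rose with a log2 fold change of 1.765. YRDC (0.90), of threonylcarbamoyl modification, rose. PTCD3 (0.85, and 0.04 with the offsets), kept in this list though known as a small-subunit mitochondrial ribosomal protein, also rose. CDK5RAP1 (-0.90), PTCD1 (-0.90) and GTPBP3 (-0.83) fell, and GTPBP3 was not called with the offsets (-0.26).

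In replication and upkeep of mitochondrial DNA, 6 of 15 rose and 5 fell, so 73.3% were called, against 55.3% of all tested genes (5 and 7 with the offsets). POLG2, the accessory subunit of the DNA polymerase, was at 68.2 ± 4.34 CPM after treatment and 7.40 ± 1.10 CPM in vehicle and rose by 3.204, TWNK, the helicase, rose by 0.96, and RRM2B, a p53-induced ribonucleotide reductase subunit, by 1.61 (0.72 with the offsets). The nuclease ENDOG (-1.50), the deoxynucleoside kinases TK2 (-1.39) and DGUOK (-0.59), the ligase LIG3 (-0.85) and MPV17 (-0.47) fell; with the offsets ENDOG was at -0.67, LIG3 at -1.45 and MPV17 at -0.29. The MPV17 call was lost without LPS plus nigericin replicate 3 (edgeR adjusted p = 0.0542). DNA copy number was not measured. Of 7 tested regulators of mitochondrial biogenesis, 6 rose and 1 fell, against 55.3% of all tested genes called (4 and 2 with the offsets). The coactivator PPRC1 (1.00), TFB2M and the transcription factor NRF1 (0.77) were among those that rose, and the nuclear receptor ESRRA fell (-1.02, and -0.32 with the offsets). The coactivator gene PPARGC1A had 0 counts in every library.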

How the data were processed

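Whole-number counts per Ensembl gene were deposited by the authors as 1 table with a column per library, per the file headers, and hg38 is the build per the submitters' processing notes. Not given in the sources used here are the aligner, the counter and its strand mode, the annotation, and the choice of reads or fragments. Columns were matched to samples by library name, and 0 columns belonged to no sample. Of the 37871 identifiers, 37840 had a symbol and 31 had none, and 6043 were at 0 in all libraries.

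edgeR 4.0.16 in R 4.3.3 was run on all 6 libraries: filterByExpr (19170 genes), TMM factors, robust quasi-likelihood F test with the group as the only term, and Benjamini-Hochberg adjustment over all tested genes at 0.05. The common biological coefficient of variation was 0.268. SE was taken as the size of the log2 fold change over the root of F. A second fit used the log of the summed counts of the 13 mitochondrial mRNAs as offset. Shares of counts were compared with exact two-sided permutation tests, which cannot go below 0.1. CPM per kb used annotated gene length. Strand, positions and sequences came from GENCODE 29. The fits were tried on simulated data with less spread and fewer changed genes than these. That checks how the code runs, not its error rates here. Alternatives used DESeq2 1.42.0, limma 3.58.1 (voom), RLE factors, library totals, other count filters, GC and length offsets (loess, span 0.3), a replicate block, and each library left out. Replicate pairs differed beyond counting noise, with a chi-square of 24.6 to 207 for each degree of freedom, and were all kept.

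Members and lists were chosen with earlier results of these data known. All mitochondrial genes could be named; of each nuclear list, up to 3 called genes with the smallest p in each direction and any in a called count of 5 or fewer; and every tested nuclear copy and untailed RNA.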

Additional observations from a re-analysis of the deposited data

How the results depend on the processing

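Over all alternatives run for them the rRNAs kept their rise (MT-RNR1 2.96 to 3.26, MT-RNR2 3.30 to 3.44 on the log2 scale) and MT-ND6 its fall (-1.69 to -1.27); the GC and length offsets were fitted to protein-coding genes and give no value for the rRNAs. DESeq2 and limma-voom each gave 8 mitochondrial genes higher and 23 lower, as in the report, and so did library sizes without mitochondrial genes or, chosen after seeing the data, without rRNA. RLE factors gave 7 and 23, library totals 8 and 24, and no filter or a filter of 1 CPM in 3 libraries 7 and 22; without a filter the median of all genes moved by 0.10. With the GC and length offsets the higher mRNAs dropped to 3. No label says whether the replicate numbers pair the samples. Correlations of same-numbered deviations were -0.02, 0.096 and -0.02, and those of different-numbered ones ran from -0.10 to 0.12. With 3 libraries in each group these cannot settle pairing. With a replicate block 8 mitochondrial genes were higher and 22 lower, and relative to mRNA 5 and 25 (6 and 25 without a count filter). Leaving out each library gave 5 to 11 higher and 21 to 22 lower, 3 to 9 higher and 2 lower mRNAs, 2 higher rRNAs, 19 to 20 lower tRNAs, 4 to 6 higher and 25 to 26 lower relative to mRNA, and 24 to 30 higher and 32 to 40 lower nuclear genes of the 7 lists. The 5 came without LPS plus nigericin replicate 1 or vehicle replicate 1, the 11 without vehicle replicate 2. Class shares (log2 ratio) ran from 3.25 to 3.31 for rRNA, 0.24 to 0.33 for mRNA and -1.41 to -1.30 for tRNA. Directions turned for some values. Most of these lay near 0, but RN7SK was at -0.64 in the report and METTL15, called higher there, at 0.60. Over left-out libraries MT-CO2 ran from -0.20 to 0.16, MT-TP from -0.27 to 0.011, MT-CO1 relative to mRNA, and likewise its share of mRNA, from -0.0105 to 0.098, RN7SK from -1.19 to 0.34, RN7SL1 from -0.99 to 0.50, RN7SL2 from -0.77 to 0.71 (0.034 with the block), MTND1P23 from -0.39 to 0.14, MTCO1P12 from -0.0195 to 0.11 (-0.0002 with library totals) and MTCO3P12 from -0.11 to 0.11. The upper end of MT-CO2, MT-TP, RN7SK, RN7SL1, RN7SL2, MTND1P23 and MTCO3P12 and the lower end of MT-CO1 came without vehicle replicate 2. With the GC and length offsets MT-ND5 was at -0.069 and METTL15 at -0.21. The cause of these shifts was not tested. Depth limits MT-TW and the other tRNAs below 1 CPM.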
